A study of Mus musculus with 2 samples.

Results

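The miR-199 and miR-214 genes of the mouse are Mir214, Mir199a-2, Mir199b and Mir199a-1, and each lies on the strand opposite to a dynamin gene. These 4 genes were taken by symbol from the 2202 miRNA genes counted in C2C12 cells, and all 4 were found. C2C12 is a myoblast line established from injured thigh muscle of C3H mice, and its cells fuse into myotubes after serum withdrawal. The 2 libraries are labelled as biological replicates of 1 group with no treatment named, made from total RNA with inserts below 30 nucleotides. Culture stage and time are not named either, so the levels describe 1 state of 1 cell line and no contrast between conditions exists.

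A microRNA gene is transcribed as a hairpin, from which the enzymes Drosha and Dicer cut a short duplex. Either arm of that duplex, called 5p or 3p, can guide Argonaute to messenger RNAs, mainly through the seed at bases 2 to 8. The miR-199 and miR-214 miRNAs are known from mesenchyme, where the long RNA Dnm3os carries Mir199a-2 and Mir214 and is induced by the transcription factor Twist1. In mouse muscle, miR-214 is known to repress the Polycomb methyltransferase Ezh2 as myoblasts differentiate, and miR-199a-5p is known in heart muscle cells as a repressor of Hif1a and Sirt1.

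The 4 hairpins lie at 3 loci on mm10. Mir214 (ENSMUSG00000065516.1, chr1:162223368-162223477, plus strand) and Mir199a-2 (ENSMUSG00000070126.1, chr1:162217814-162217923, plus strand) are 5444 bases apart, and each overlaps an annotated exon of Dnm3os. Both lie in intronic sequence of Dnm3, which runs on the minus strand. Mir199b (ENSMUSG00000092807.1, chr2:32318460-32318569, plus strand) lies in an intron of Dnm1 on the other strand. Mir199a-1 (ENSMUSG00000065547.1, chr9:21496495-21496564, minus strand) lies in an intron of Dnm2 on the other strand. GENCODE M21 annotates no gene on the strand of Mir199b or Mir199a-1 that spans the hairpin.

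The hairpins are shown because what could be counted on each gene depends on how much sequence it shares with the others. All 4 matched RefSeq entries (GRCm38.p6) with the coordinates and sequence of the annotation. Capitals mark the mature arms listed by RefSeq and, in Mir199b, also the stretch that aligns with miR-199a-5p.
Mir214: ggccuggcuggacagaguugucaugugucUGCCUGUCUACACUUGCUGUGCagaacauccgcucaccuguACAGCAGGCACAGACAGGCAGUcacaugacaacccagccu
Mir199a-2: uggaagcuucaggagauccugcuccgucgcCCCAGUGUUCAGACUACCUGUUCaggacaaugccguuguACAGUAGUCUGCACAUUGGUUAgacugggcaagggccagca
Mir199b: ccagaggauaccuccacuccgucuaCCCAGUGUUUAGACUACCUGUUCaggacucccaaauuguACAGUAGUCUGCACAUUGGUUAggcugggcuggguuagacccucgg
Mir199a-1: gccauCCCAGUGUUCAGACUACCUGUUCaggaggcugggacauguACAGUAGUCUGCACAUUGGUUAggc

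The mature arms carry 4 different seeds, marked by capitals.
miR-214-5p: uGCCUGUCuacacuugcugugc
miR-214-3p: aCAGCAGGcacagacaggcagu
miR-199a-5p: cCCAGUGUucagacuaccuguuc
Mir199b stretch aligned with miR-199a-5p: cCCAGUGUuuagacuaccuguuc
miR-199a-3p and miR-199b-3p: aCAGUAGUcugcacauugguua
Mir199a-1 and Mir199a-2 encode an identical miR-199a-5p and an identical miR-199a-3p. The 3p arm of Mir199b has that same sequence, so 3 genes hold it. The Mir199b stretch differs from miR-199a-5p by 1 base, C10U counted from the 5′ end of the arm, which is outside the seed. The longest run of bases shared without a gap was 27 between Mir199a-2 and Mir199a-1, 27 between Mir199a-2 and Mir199b and 28 between Mir199b and Mir199a-1. Mir214 shared at most 7 bases in a row with any of the 3 miR-199 hairpins. Among the mature miRNAs of the RefSeq table, the seed of miR-214-3p recurred only in miR-761, and the other 3 seeds recurred in no gene outside the family. Mir761 had 0 counts throughout, compatible with a level of up to 0.108 counts per 1000000 counts (CPM) in replicate 1 and 0.200 CPM in replicate 2.

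The libraries held 27661907 counts on the strand of a miRNA gene in replicate 1 and 15025315 in replicate 2. Mir21a alone took 23.1% of them in replicate 1 and 53.5% in replicate 2, so levels relative to the total move with that gene. Reads placed at several positions made up 33.4% of all reads in replicate 1 and 22.8% in replicate 2. The skeletal muscle gene Mir206 was present at 2559 and 1028 CPM, while 3 of 10 genes on the muscle marker list were detected. The undetected muscle genes include the numbered copies Mir1a-1, Mir1a-2, Mir133a-1 and Mir133a-2. Reads that fit several copies may be missing from them, so their low counts do not show that these miRNAs are absent. Of the lists for other cell types, blood summed to 220 and 125 CPM (2 of 4 genes detected), the endothelial gene Mir126a had 213 and 134, epithelial genes summed to 21.7 and 17.2 (3 of 6), and the 6 neural genes had 2 reads in all, with 5 genes at 0, although the 3 Mir9 genes share their mature arms. Reads that fit several of the Mir124a copies on the neural list may be missing as well. Both libraries are labelled as the C2C12 line. Whether other cell types were present, or had a part in the levels of the miR-199 and miR-214 genes, was not tested.

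Mir214 was by far the most counted of the 4 genes, and the miR-199 genes followed at much lower levels. Mir214 had 127318 counts in replicate 1 and 35336 in replicate 2, which corresponds to 4603 CPM (exact 95% interval 4577 to 4628) and 2352 CPM (2327 to 2376), a mean of 3477 ± 1592 CPM (SD, n = 2). In both libraries it was among the 40 most counted genes, at rank 40 in replicate 1 and rank 39 in replicate 2. Its level exceeded that of every miR-199 gene in each library, and the ranges did not overlap.

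Mir199a-2, the other hairpin of Dnm3os, had 1546 counts in replicate 1 and 632 in replicate 2. These are 55.9 CPM (53.1 to 58.7) and 42.1 CPM (38.8 to 45.5), with a mean of 49.0 ± 9.78 CPM (SD, n = 2). Mir199b, the hairpin opposite Dnm1, had 909 and 220 counts, or 32.9 CPM (30.8 to 35.1) and 14.6 CPM (12.8 to 16.7), with a mean of 23.8 ± 12.9 CPM (SD, n = 2). The higher library of Mir199b stayed below the lower library of Mir199a-2. Mir199a-1, the hairpin opposite Dnm2, had 76 and 12 counts, or 2.75 CPM (2.16 to 3.44) and 0.799 CPM (0.413 to 1.40). Its mean was 1.77 ± 1.38 CPM (SD, n = 2), and its libraries lay below both libraries of Mir199b.

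At a threshold of 1 CPM in both libraries, 3 of the 4 genes were detected, beside 14.5% of the 2202 miRNA genes. Mir199a-1 missed it through replicate 2. The order Mir214, Mir199a-2, Mir199b, Mir199a-1 held in each library. A read of this assay spans a mature miRNA, so counts were not divided by hairpin length. Per 100 bases of hairpin the order was the same, with 3.92 CPM in replicate 1 and 1.14 CPM in replicate 2 for the 70-base Mir199a-1 hairpin, and 29.9 and 13.3 CPM for Mir199b. The intervals on the levels take each read as an independent draw and cover counting error only. Amplified reads are not independent molecules, so the intervals may be too narrow.

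**Figure D1:**
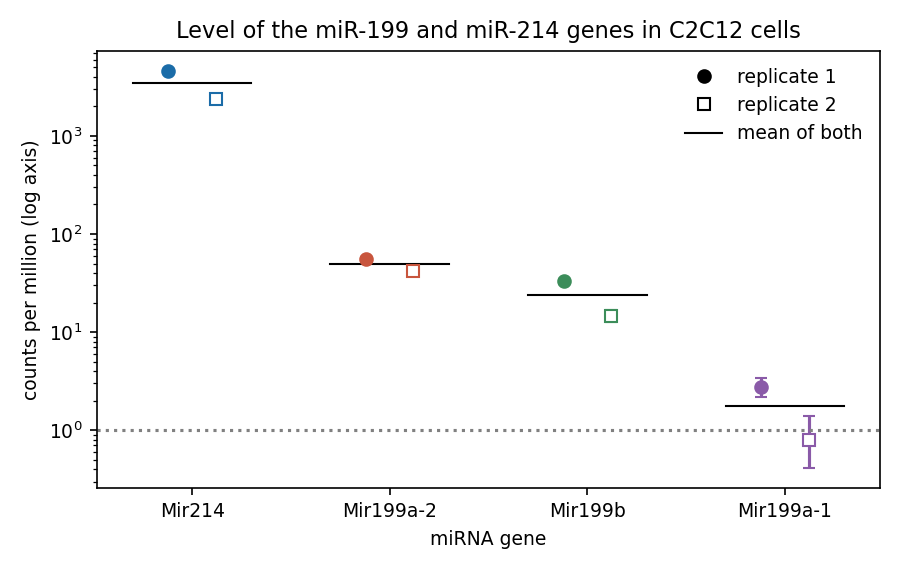
CPM on a log axis for each of the 4 genes, with replicate 1 as filled circles, replicate 2 as open squares, exact 95% counting intervals as bars and the mean of both as a line. Mir214 stands at 4603 and 2352 CPM, and only replicate 2 of Mir199a-1, at 0.799 CPM, falls below the dotted line at 1 CPM.

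The counts of the miR-199 genes have to be read against their shared sequence. The gene tables give multi-mapping reads a row of their own, 18382947 reads in replicate 1 and 5599235 in replicate 2, and how many of these carry miR-199 sequence cannot be told from the tables. To see which sequences belong to a single locus, each hairpin was cut into all windows of 22 bases, and these were searched on both strands of all annotated transcripts. All 89 windows of Mir214 (100%) occurred at 1 locus. For Mir199b this held for 81 of 89 windows (91.0%), for Mir199a-2 for 77 of 89 (86.5%) and for Mir199a-1 for 36 of 49 (73.5%). The shared windows lay over the mature arms, and the loci they were shared with were always other miR-199 genes. In Mir199b the windows over the 5p arm were its own, and only those over the 3p arm were shared.

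**Figure D2:**
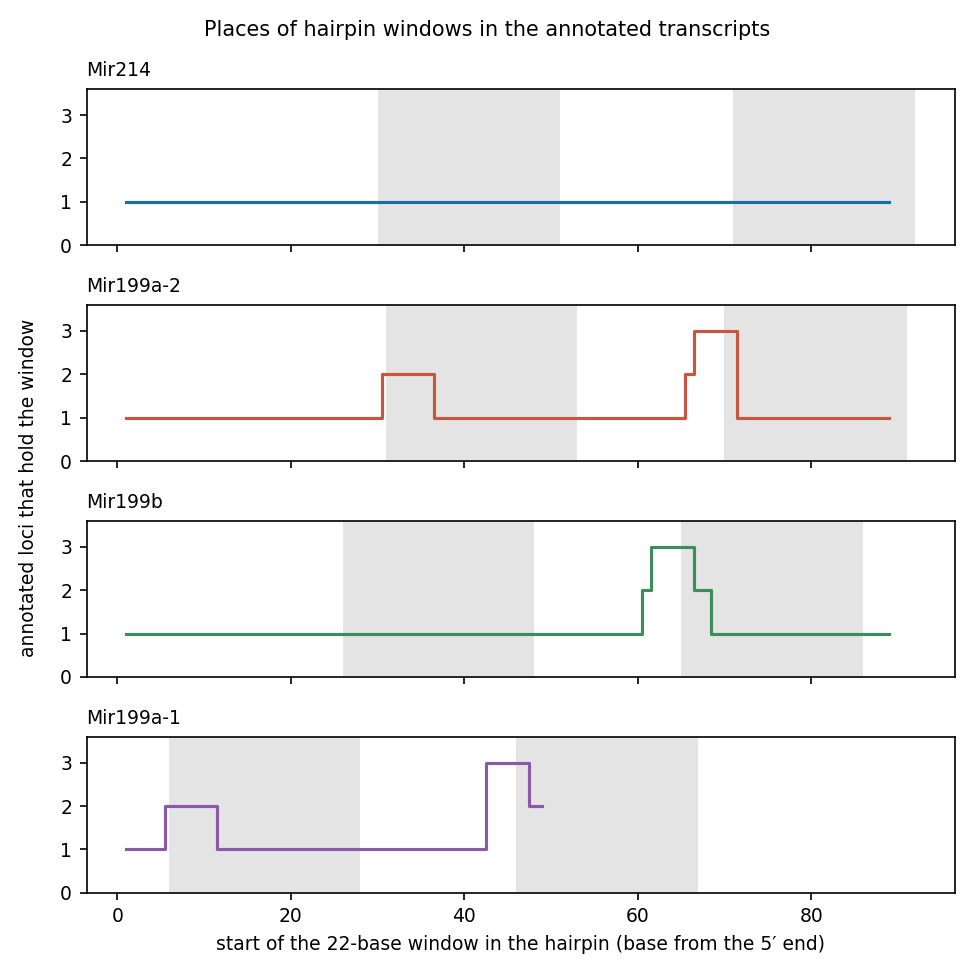
Number of annotated loci that hold each 22-base window, plotted by the first base of the window in the hairpin, with the mature arms (and the aligned stretch of Mir199b) in grey. Mir214 stays at 1 locus throughout, Mir199a-2 and Mir199a-1 reach 2 loci at the 5p arm and 3 at the 3p arm, and Mir199b reaches 3 loci at the 3p arm only.

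The same question was asked of the mature arms with their ends moved, since Drosha and Dicer often cut a base or more away from the listed end. For each arm 30 versions were made, with the start moved by up to 2 bases and the end by 2 bases inward to 3 bases outward. Both arms of Mir214 were found at 1 locus in 30 of 30 versions. For Mir199b, 30 of 30 versions of the 5p stretch and 0 of 30 versions of the 3p arm were found at 1 locus. For Mir199a-2, 12 of 30 versions of the 5p arm and 10 of 30 of the 3p arm were its own. The 5p versions were those that start 1 or 2 bases early, and the 3p versions those that end 2 or 3 bases late. For Mir199a-1, 12 of 30 versions of the 5p arm were its own and 0 of 30 of the 3p arm. The listed miR-199a-5p and miR-199a-3p themselves were found at 2 and 3 loci. The sources used here do not state whether reads with several places were added to any gene. If they were not, reads of exact miR-199a-3p are missing from the counts of all 3 miR-199 genes. Reads of exact miR-199a-5p would then be missing from Mir199a-2 and Mir199a-1. The 5p stretch of Mir199b would still be counted if only exact matches were taken as places. That stretch is 1 base away from miR-199a-5p, and whether mismatched places were counted is not known. The counts therefore set no upper limit on miR-199a-5p or miR-199a-3p in these cells.

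Because of this, the 3 dynamin loci can be compared in counts placed on each gene, not in mature miRNA made. Mir199a-2 held 61.1% of the counts on the 3 miR-199 genes in replicate 1 (exact 95% interval 59.2 to 63.0) and 73.1% in replicate 2 (70.1 to 76.1). Mir199b held 35.9% (34.0 to 37.8) and 25.5% (22.6 to 28.5), a mean of 30.7% ± 7.39 (SD, n = 2). Mir199a-1 held 3.0% (2.37 to 3.74) and 1.39% (0.720 to 2.41). The order of the shares was the same in both libraries, and the intervals of Mir199a-2 and Mir199b did not overlap between the libraries. Between the copies with identical mature arms, Mir199a-1 had 4.92 counts per 100 on Mir199a-2 in replicate 1 and 1.90 in replicate 2. All 3 miR-199 genes together reached 91.5 CPM (88.0 to 95.1) and 57.5 CPM (53.7 to 61.5).

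Mir214 and Mir199a-2 overlap exons of the same long RNA but differed widely in the counts placed on each gene. Both arms of Mir214 were found at 1 locus, while the listed miR-199a-5p and miR-199a-3p were found at 2 and 3 loci. Reads of the miR-199a arms may therefore be missing from Mir199a-2, so the ratios do not compare the output of these hairpins. Mir214 had 82.4 counts for each count on Mir199a-2 in replicate 1 (78.3 to 86.6) and 55.9 in replicate 2 (51.7 to 60.6). Put the other way, Mir199a-2 had 1.21 counts per 100 on Mir214 (1.15 to 1.28) and 1.79 (1.65 to 1.93), a mean of 1.5 ± 0.406 (SD, n = 2). This ratio within a library does not depend on its total. It was 1.47 times as high in replicate 2 as in replicate 1 (two-sided Fisher's exact test on the 4 counts, p = 2.57e-15), a test that compares these 2 libraries by counting error alone. Mir199b had 58.8 counts per 100 on Mir199a-2 in replicate 1 and 34.8 in replicate 2. Against Mir214 it had 0.714 and 0.623 counts per 100.

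Across the repertoire, Mir214 lay at rank 39 of the mean levels, Mir199a-2 at 159, Mir199b at 180 and Mir199a-1 at 311. For the miR-199 genes these are ranks of counts placed on the gene, which set no upper limit on miR-199a-5p or miR-199a-3p. The median over the 320 detected genes was 43.9 CPM. On the list of 20 other mesenchymal and fibroblast miRNAs, of which 18 were detected, 11 genes had a higher mean than Mir214 and 16 a higher mean than Mir199a-2. The highest were Mir21a, which is widely abundant in growing cells, Mir22 and Mir143. The genes next to Mir214 on that list were Mir125b-1 at 4358 ± 1390 CPM and Mir145a at 1446 ± 119 CPM (SD, n = 2). The most counted gene of the muscle list, Mir206, averaged 1794 ± 1082 CPM (SD, n = 2), below Mir214 in both libraries.

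**Figure D3:**
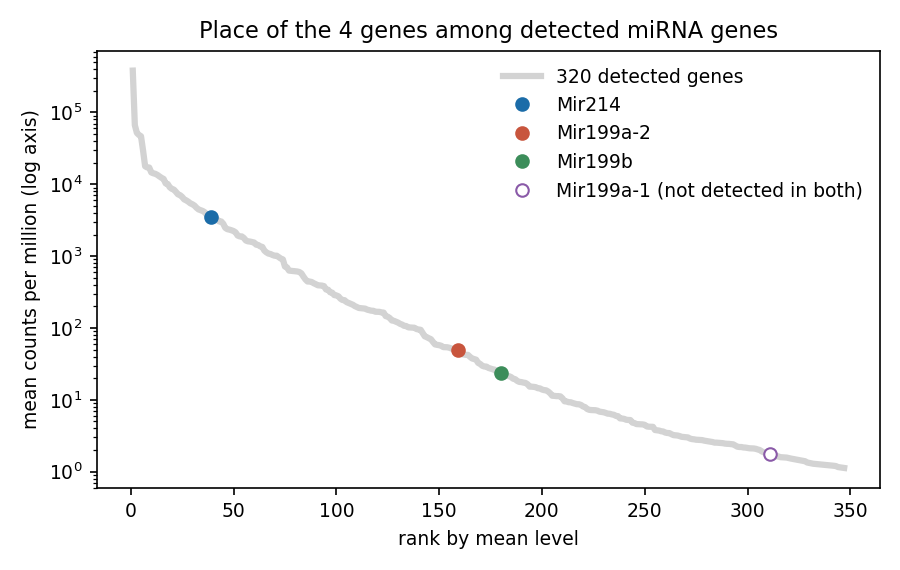
Mean CPM on a log axis against the rank of the mean, with the detected genes as a grey line and the 4 genes as points. Mir214 lies at rank 39, Mir199a-2 and Mir199b near the middle at ranks 159 and 180, and Mir199a-1, not detected in both libraries, at rank 311.

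The genes with levels most like those of each detected gene were found by the Euclidean distance over log2(CPM + 1) in the 2 libraries. For Mir214 these were Mir106b, at 4438 and 2369 CPM (distance 0.05), Mir30e (0.24) and Mir92-1 (0.26). For Mir199a-2 they were Mir103-2, at 63.7 and 44.1 CPM (distance 0.20), Mir877 (0.28) and Mir3105 (0.33). For Mir199b they were Mir187, at 37.8 and 15.5 CPM (distance 0.21), Mir19a (0.23) and Mir92b (0.27). With 2 libraries this measures little more than a shared level.

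Genes were also grouped by whether their mature arms occur in another hairpin. Of 626 genes with 2 mature arms listed, 553 had both arms to themselves, Mir214 among them at place 28 by mean level. Of these, 179 (32.4%) were detected, with a median of 102 CPM. Another 54 genes had 1 arm of their own, of which 40 (74.1%) were detected at a median of 28.8 CPM. The remaining 19 genes had no arm of their own, of which 3 (15.8%) were detected. These were Mirlet7c-2 at 107 and 94.5 CPM, Mir199a-2 at 55.9 and 42.1 CPM and Mirlet7a-1 at 42.0 and 47.3 CPM, and Mir199a-1 followed at place 4 by mean level. No read was counted on 14 of the 19, beside 6 of the 54 and 118 of the 553. Over all 2202 miRNA genes, which include genes without 2 listed arms, 14.5% were detected and no read was counted on 1398. Whether shared arms account for the genes without reads was not tested. Mir199b, with 1 arm listed, was not classed.

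The replicates were compared after TMM scaling, which estimates library size from the bulk of genes. The log2 size of replicate 2 relative to replicate 1 fell by 0.90 against the library totals, which raises every ratio by that amount. Mir214 had a log2 ratio of replicate 2 over replicate 1 of -0.07 (counting SE 0.0087), or 1.05-fold lower in replicate 2. Mir199a-2 was 1.40-fold higher in replicate 2, a log2 ratio of 0.49 (SE 0.07), and by library totals it was instead lower there, at -0.41. Mir199b was 1.20-fold lower in replicate 2, at -0.27 (SE 0.11), and Mir199a-1 had a log2 ratio of -0.84 (SE 0.44). The genes thus lay on both sides of 0 after TMM scaling, with Mir199a-2 above it and the other 3 below.

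In the exact binomial test of the counts with Benjamini-Hochberg adjustment over 556 genes, 3 of the 4 genes were called, beside 41.5% of all tested genes. Of these, 1 was higher in replicate 2, beside 24.6% of the tested genes, and 2 were lower, beside 16.9%. The split rests on scaling, with 137 genes higher and 94 lower in replicate 2 after TMM, 26 and 304 by library totals and 94 and 138 by totals without Mir21a. The adjusted p was 9.47e-16 for Mir214, 1.27e-11 for Mir199a-2 and 0.0319 for Mir199b, and 0.116 for Mir199a-1, which missed the threshold of 0.05. Among the 210 tested genes with a mean of at least 10 CPM, 83.3% were called, so a call at such depth is common. The test measures counting error between these 2 libraries and no condition. The median absolute log2 ratio over the 210 genes was 0.33. Larger absolute ratios than that of Mir214 were found in 183 of the 210, than that of Mir199b in 121 and than that of Mir199a-2 in 75.

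**Figure D4:**
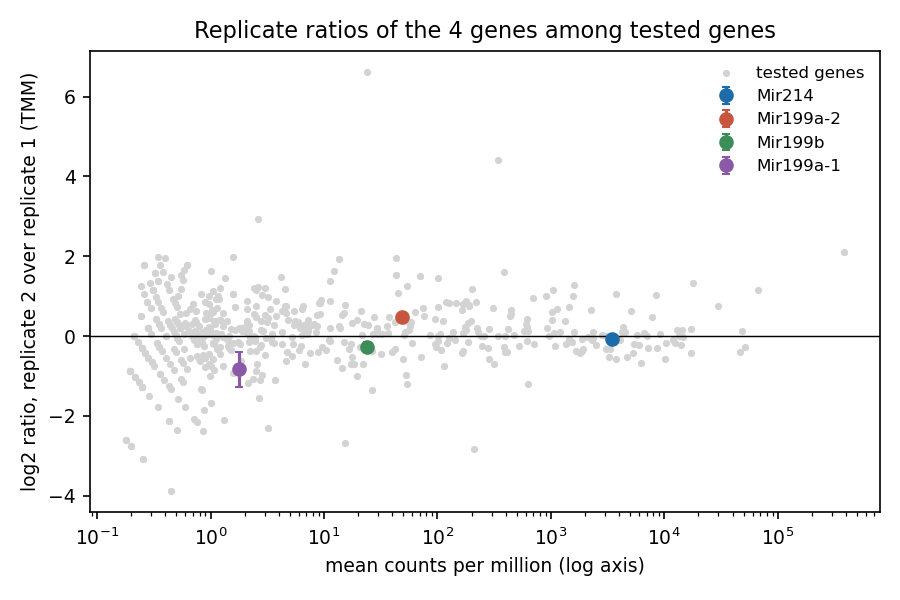
TMM-scaled log2 ratio of replicate 2 over replicate 1 against mean CPM (log axis) for the tested genes in grey and the 4 genes in colour, with counting standard errors as bars. Mir214 lies at -0.07 and Mir199a-2 at 0.49, inside the grey cloud at their levels, and Mir199a-1 has the widest bar.

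Reads on the strand opposite to the hairpins, which is the sense strand of the dynamin genes, were close to absent. Mir214 had 12 such reads in replicate 1 and 0 in replicate 2. Mir199a-2, Mir199b and Mir199a-1 had 0 in each library, and 0 reads is compatible with up to 3.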

How the data were processed

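The deposited tables hold whole-number counts of reads per miRNA gene made by the authors for either strand, the gene's strand and the opposite strand, with mm10 and GENCODE M21 named per the file headers of the readme files. The aligner, the counter and the handling of multi-mapping reads are not named by the labels or headers. Rows that name no gene (49.7% of reads in replicate 1, 38.8% in replicate 2) stayed out of totals. Gene-strand counts were divided by their total per 1000000. Intervals are exact (Clopper-Pearson, 95%). Replicate ratios used edgeR 4.0.16 TMM factors (R 4.3.3) over genes with at least 10 counts, a prior count of 0.5 and a two-sided exact binomial test (scipy 1.17.1). The test was also run on simulated counts that held set fold changes and counting error only. That run cannot show how the test behaves under spread beyond counting error. With 2 libraries of 1 group, edgeR's quasi-likelihood test has no contrast. DESeq2 1.42.0 size factors were an alternative. No genome was used here: the window search planned on the genome ran on 141767 annotated transcripts, so unannotated copies were not searched. The named genes were the 4 members, the 3 nearest genes of each detected member, genes sharing a seed, Mir21a and the leading genes of the marker lists. Mir125b-1, Mir145a, Mirlet7c-2, Mirlet7a-1 and the Mir1a, Mir133a and Mir124a copies were named after their values were seen. The members and lists were chosen with earlier results of these data known.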

Additional observations from a re-analysis of the deposited data

Results flagged for a closer look

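Reads outside the gene-strand counts exceeded the limit that a count of 0 allows, which is 3 reads, and no control libraries were analysed here. On the strand opposite to Mir214, 12 reads were counted in replicate 1, or 0.00942% of the reads on either strand of the hairpin, and 0 in replicate 2. The row of reads with several places held 18382947 reads for replicate 1 and 5599235 for replicate 2. Their sequences are not in the tables, and their share from the miR-199 genes was not tested.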

How the results depend on the processing

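No paired analysis was possible because the labels name a single group. Mir199a-2 reversed under library totals, with a log2 ratio of -0.41. Mir199a-1 passed the test there at -1.73 (adjusted p = 2.28e-05, exact binomial test) and with totals without Mir21a at -1.01 (adjusted p = 0.0336, exact binomial test), against adjusted p of 0.0716 to 0.161 under the other alternatives. Library totals gave 26 genes higher and 304 lower in replicate 2, against 137 and 94 with TMM. With totals without Mir21a, mean levels moved to 5521 CPM for Mir214, 81.6 for Mir199a-2 and 37.1 for Mir199b. With multi-mapping reads in the total, all 4 mean levels were lower, at 2239 CPM for Mir214, 32.1 for Mir199a-2, 15.2 for Mir199b and 1.12 for Mir199a-1. Windows at 1 locus at 18 bases made up 77.4% for Mir199a-2, 84.9% for Mir199b and 60.4% for Mir199a-1. With up to 1 mismatch among hairpins, an alternative chosen after seeing the data, they made up 75.3%, 76.4% and 67.3%, in that order. For Mir214 they made up 98.9% at 18 bases and 100% with up to 1 mismatch. The cause of these moves was not tested beyond the changed totals and search. Without either replicate, Mir214 ranged from 2352 to 4603 CPM, Mir199a-2 from 42.1 to 55.9, Mir199b from 14.6 to 32.9 and Mir199a-1 from 0.799 to 2.75. The Mir199b share ranged from 25.5% to 35.9% and Mir199a-2 per 100 Mir214 counts from 1.21 to 1.79. Mir199a-1 also passed detection when the minimum was lowered to 0.5 CPM, and in replicate 1 alone, which gives 4 of the 4 genes in place of 3. Over all genes, 228 to 398 were detected under these alternatives, against 320. Library totals called 330 genes between the replicates, against 231. The level of Mir199a-1 in replicate 2 rests on 12 counts.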
